A study of Mus musculus with 6 samples.

Results

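The 35 genes described here act in the Fanconi anemia (FA) pathway and in homologous recombination (HR), the repair of broken or crosslinked DNA from an intact copy. They were chosen by gene symbol, and all 35 were found among the 21878 rows that each library lists. All 35 passed the filter on low values, as did 10449 genes in all. RNA-seq was performed on hematopoietic stem cells (HSCs) of WT mice, which the methods of the study give as C57BL/6 mice. The HSCs were sorted from bone marrow (BM) as cells negative for lineage markers, Flt3 and CD34 and positive for Sca-1 and c-Kit. The control group holds 3 libraries of vehicle-treated mice, and the IGF1 group holds 3 libraries of mice that received recombinant IGF1 once under the skin at 200 µg/kg, a growth factor that signals through its receptor to mTOR. Both groups were taken at day 1, and no mouse carried another allele or agent as far as the sources state. The labels conflict at this point, since their extraction text speaks of irradiated mice while the treatment label names IGF1, and IGF1 was taken. Nothing says that the libraries came from separate mice, so the p-values measure only the spread between these libraries, which may be technical. The comparison asks which transcripts of the pathway differed in HSCs with and without a transient IGF1 stimulus.

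In the FA pathway, a core complex of proteins recognises DNA crosslinks and attaches ubiquitin to the FANCD2 and FANCI pair, which then recruits nucleases and repair factors. Homologous recombination starts with nucleases that resect a DNA end, after which BRCA1, PALB2 and BRCA2, the XRCC2 and XRCC3 family and the RAD54 proteins help the resected end to invade the intact copy, under the control of the ATM and ATR kinases. In the blood system the pathway is known for its loss, since inherited FA defects lead to failing stem cells, and many of its genes are transcribed mainly in S and G2 phase.

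Levels are given as FPKM, which counts fragments relative to the length of a gene and the number sequenced. The steps of the FPKM values gave back the reads behind them, from 11429198 to 15973834 per control library and from 11206800 to 12756225 per IGF1 library. Control replicate 2 stood apart from the other controls. On the first principal component, which held 93.2% of the variance, control replicates 1 and 3 lay at -64.7 and -64.8, control replicate 2 at 17.8 and the IGF1 libraries at 36.6 to 37.8. Between control replicates 1 and 2, 4176 genes differed more than 2-fold, against 128 between control replicates 1 and 3 and 852 to 919 between control replicate 2 and an IGF1 library. The labels were kept, and whether this library carries the right label was not tested, although every control mean and fold change rests on it. The main counts are therefore given with and without control replicate 2. In the bulk libraries, fewer cells of a type and less RNA per cell cannot be told apart.

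Most of the FA and HR genes had lower FPKM in HSCs of IGF1-treated mice, and few of them passed the test. Once length and GC trends were removed, 18 of 35 were below 0, beside 5472 of all 10449 genes tested. A gene was called when its fold change on the log2(FPKM + 1) scale exceeded 2 and limma's Benjamini-Hochberg adjusted p over all genes tested was under 0.05. Among the 35 members, 2 were called lower (5.71%, against 4.63% of all genes tested) and 0 were called higher (1.98% of all genes). The called genes were Fancd2, the ubiquitinated centre of the pathway, and Exo1, the exonuclease that extends resected DNA ends. On the adjusted p alone, Rad51b and Chek1 passed as well, which makes 4 of 35 against 20.4% of all genes. At an unadjusted p under 0.05 in limma with a 2-fold change, 4 members were lower and 0 higher. Among all 10449 genes tested, 1077 were lower and 666 higher at the same limits. Without a threshold, 28 of 35 had a fold change below 0 (80%, against 59.6% of all genes).

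The 2 groups did not overlap for 20 of the members. All 3 IGF1 libraries lay below all 3 controls for 17 genes (48.6%, against 37.4% of all genes), and all 3 lay above them for Fance, Bard1 and H2afx (8.57%, against 21.9%). The smallest 2-sided exact permutation p that 3 libraries against 3 can give is 0.1, so no single gene could pass on that test. The median log2 fold change of the members was -0.41, beside -0.18 over all genes tested. Scaling moved the median of all genes to -0.55 (the same FPKM sum in each library), 0.04 (75th percentile) and -0.02 (quantile normalization). Relative to it, the members stood at -0.24 as deposited, at -0.25, -0.21 and -0.21 under these scalings, and at 0.02 with length and GC trends removed.

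Without control replicate 2, the calls among the members grew to 6, all lower (17.1%, against 20.6% of all genes called lower and 12.3% called higher). These were Fancb, Fancd2, Fanci, Rad54l, Exo1 and Chek1. The median of the members was then -0.58, beside -0.24 over all genes. On the adjusted p alone, 28 members passed, while 88.5% of all genes did too. As before, 28 of 35 were below 0, against 59.2% of all genes. The IGF1 libraries then lay below control replicates 1 and 3 for 25 members (71.4%, against 55.2% of all genes) and above them for 6 (17.1%, against 36.7%). In the plot of FPKM by library, control replicate 2 took an intermediate place between its own group and the IGF1 group for 17 members and inside the IGF1 range for 6. It lay above all other libraries for 7 members (Fancm, Ube2t, Rad51c, Rad51d, Blm, Atm and Atr) and below all of them for 5 (Fanca, Slx4, Mre11a, Nbn and Rbbp8). On a scale where the other controls stand at 0 and the IGF1 mean at 1, its median position was 0.83 over the 21 members that changed by more than 0.5 on the log2 scale without it, and 0.81 over the 6619 such genes in all. Fancd2 had the lowest position of these members, 0.35, so its control replicate 2 value was the closest to the other controls.

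**Figure D1:**
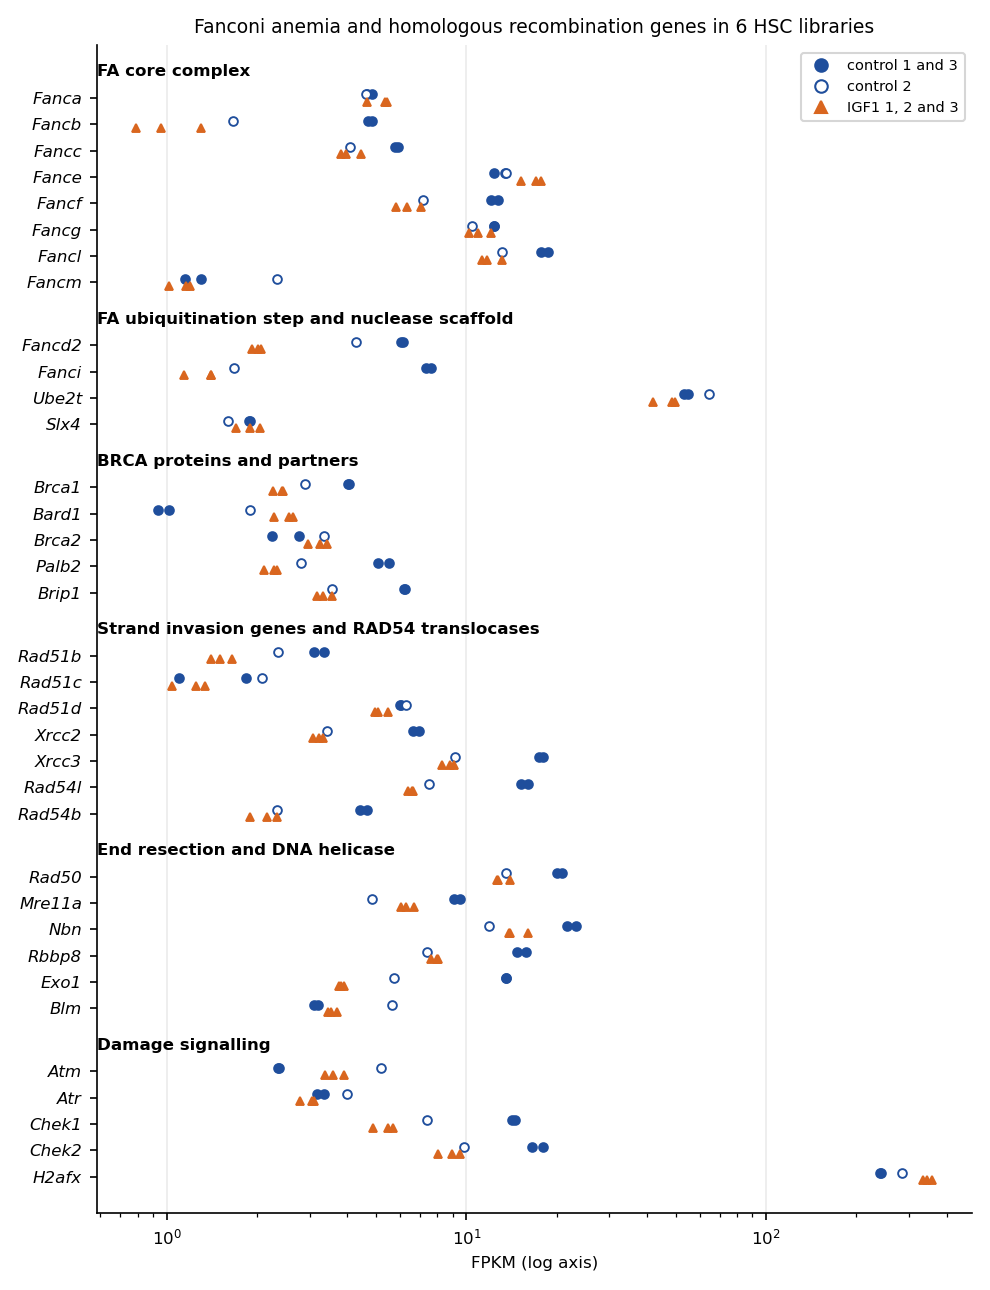
FPKM (log axis) of each of the 35 FA and HR genes in 6 HSC libraries, ordered by role. Filled circles are control replicates 1 and 3, the open circle is control replicate 2, and triangles are the 3 IGF1 libraries; for most genes the open circle sits near the triangles, while for Fancd2 it is nearer to the filled circles.

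Transcript length and GC content moved with the comparison. The quintile of genes with the lowest GC content in their longest transcript had a median log2 fold change of -0.53 and the quintile with the highest had 0.25. The members had a median GC content of 45.9% and a median length of 3944 bases, against 49.7% and 3240 bases over 10354 genes, and 26 of the 35 lay in the 2 quintiles of lowest GC content. With the trends on length and GC content removed in each library, the median of the members was -0.02, beside -0.03 over all genes. Of the 35 members, 18 were below 0, beside 5472 of all 10449 genes tested, and 0 were called. Under that removal Fancd2 stood at -0.78 (limma adjusted p = 0.0265), short of the 2-fold limit, and Exo1 at -1.11 (adjusted p = 0.0533). The lower median of the members is thus not seen once genes are compared with others of their length and GC content. In the plot of fold change by length and GC content, most members lie close to the median bar of their quintile, and Exo1, Fanci, Fancb and Fancd2 lie lowest.

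**Figure D2:**
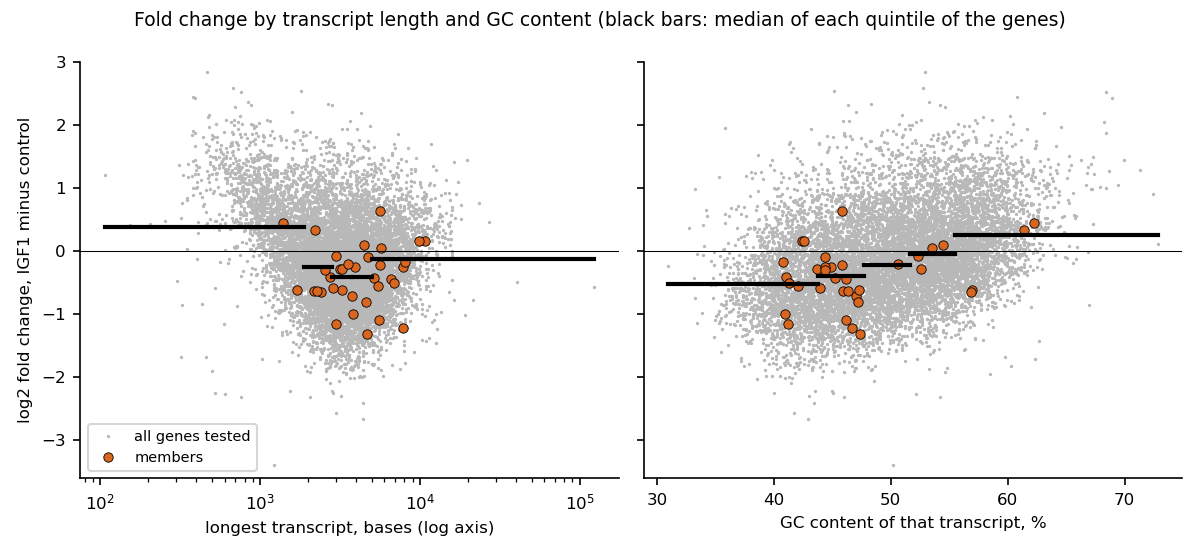
Log2 fold change (IGF1 minus control) of 10354 genes (grey) and the 35 members (orange) against the length of the longest transcript in bases (left, log axis) and its GC content in percent (right). Black bars are medians of each quintile of the genes, and run from -0.53 in the quintile of lowest GC content to 0.25 in the highest.

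Many genes of S phase are driven by E2F factors, so the promoters of the members were searched for E2F-like letters. RefSeq windows of 250 bases before to 50 bases after the start site (build GRCm38.p6) matched 26 of the 35 members. Fancd2, Exo1, H2afx, Rad50, Nbn, Rbbp8, Rad51d, Rad54b and Xrcc2 were the others. The letters TTTCGCGC, TTTGGCGC, TTCGCGCC, TTCCCGCC and TTTCCCGC, which can overlap each other, were searched on both strands. They occurred in 9 of 26 members (34.6%), in 8.8% of 8488 tested genes with a window and in 3.8% of all 32851 windows. The letters CCAAT occurred in 18 of 26 members (69.2%, against 43.7% of those tested genes and 37.4% of all windows), and TTTGAA or TTCGAA, the letters of the cell cycle homology region, in 3 of 26 (11.5%, against 16.8% and 19.2%). A match describes letters only. Below are the members whose E2F-like match begins before the start site, shown because they place like letters beside genes whose fold changes had different signs. Each is written 5′ to 3′ on the strand of its gene, with the match in capitals.
Fancb, chrX:164980393-164980452, plus strand: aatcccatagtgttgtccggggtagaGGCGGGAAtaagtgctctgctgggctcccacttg
Chek2, chr5:110839805-110839864, plus strand: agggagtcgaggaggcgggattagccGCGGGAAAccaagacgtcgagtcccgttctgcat
Brip1, chr11:86201186-86201224, minus strand: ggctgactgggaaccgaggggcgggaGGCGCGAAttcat
Fancm, chr12:65075523-65075582, plus strand: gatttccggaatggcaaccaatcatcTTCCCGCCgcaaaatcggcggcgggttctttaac
Rad51c, chr11:87404947-87404986, minus strand: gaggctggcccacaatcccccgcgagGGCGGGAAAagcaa
Fancg, chr4:43010320-43010379, minus strand: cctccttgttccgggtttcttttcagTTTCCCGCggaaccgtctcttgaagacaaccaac
Brca2, chr5:150522427-150522486, plus strand: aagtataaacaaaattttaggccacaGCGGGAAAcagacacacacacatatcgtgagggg
Bard1, chr1:71103148-71103207, minus strand: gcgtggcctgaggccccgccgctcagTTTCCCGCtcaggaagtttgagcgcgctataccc

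Counted from the start site, the match began at base -173 in Fancb, -152 in Chek2, -5 in Brip1, -54 in Fancm, -6 in Rad51c, -52 in Fancg, -168 in Brca2 and -209 in Bard1. In Chek1 it lay after the start. The 9 members with a match had a median log2 fold change of -0.26, from -1.16 in Fancb to 0.64 in Bard1, and 7 of them were below 0. The 17 members with a window and no match had a median of -0.29, with 13 below 0. The medians without control replicate 2 were -0.16 with a match and -0.49 without, so that they lay close together only when that library was included.

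The FA core complex, the ubiquitin ligase machine that acts on FANCD2 and FANCI, had 6 of 8 members below 0, a median of -0.28 and 0 calls. Fancb, which builds the catalytic module around the ligase, was the lowest. It lies at chrX:164980592-164997272 on the plus strand (GRCm38, 9 exonic blocks). Fancb stood at 4.85, 1.67 and 4.70 FPKM in controls and at 1.30, 0.955 and 0.793 FPKM in IGF1 libraries, which were 266, 66, 259, 55, 37 and 35 recovered reads. The 3 IGF1 values all lay below the lowest control, which was control replicate 2. The log2 fold change was -1.16 ± 0.33 (SE), with an adjusted p of 0.0523 in limma's fit. Without control replicate 2 it was -1.53 ± 0.11 (limma adjusted p = 3.2e-07), and with the length and GC trends removed it was -0.46. Fancb had the lowest count of any member in a single library, 35 reads, and 30 of the 35 had at least 100 reads in every library.

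Fancf, an adaptor that holds the complex together and has a single exon, stood at 12.7, 7.17 and 12.1 FPKM in controls and 6.35, 5.80 and 7.06 FPKM in IGF1 libraries. The groups did not overlap, by the small gap between control replicate 2 and IGF1 replicate 3, and the log2 fold change was -0.62 ± 0.23 (limma adjusted p = 0.0755). Fance, which links the core complex to FANCD2, went the other way. Its values were 13.4, 13.5 and 12.4 FPKM in controls and 15.2, 17.7 and 17.0 FPKM in IGF1 libraries, with control replicate 2 beside its own group. The log2 fold change of Fance was 0.33 ± 0.11 (limma adjusted p = 0.0650), but -0.04 when the libraries were rescaled to the same FPKM sum.

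The other core members overlapped between the groups. Fancl, the ligase subunit itself, had a log2 fold change of -0.41, Fancc -0.29 and Fancm, the DNA translocase that anchors the complex, -0.26 (-0.06 without control replicate 2). For Fanca and Fancg, 2 further structural subunits, the values were 0.10 and -0.08. With the length and GC trends removed, Fancl was at 0.24, Fancc at 0.01, Fancm at -0.09, Fanca at 0.19 and Fancg at 0.22. Fancm ranged from 1.02 to 2.33 FPKM, and control replicate 2 was the only library above 1.30. Core subunits of the same machine thus had fold changes on both sides of 0, with Fancb and Fance at the ends.

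Among the genes of the ubiquitination step, Fancd2 and its partner Fanci were both low in the IGF1 libraries. Fancd2 lies at chr6:113531682-113597017 on the plus strand (43 exonic blocks). It stood at 6.07, 4.27 and 6.15 FPKM in controls and at 2.01, 2.07 and 1.92 FPKM in IGF1 libraries, or 5.50 ± 1.06 against 2.0 ± 0.0775 (mean ± SD, n = 3). Every control, replicate 2 included, was above every IGF1 library. Fancd2 fell by 1.10 ± 0.15 on the log2 scale (limma adjusted p = 0.0287), and by 1.24 without control replicate 2. It was the member with the smallest adjusted p.

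Fanci, the partner of FANCD2 in the clamp, lies at chr7:79391929-79450264 on the plus strand. Its controls were 7.35, 1.68 and 7.63 FPKM, and its IGF1 libraries were 1.14, 1.41 and 1.41 FPKM. Control replicate 2 lay much nearer to the IGF1 libraries than to the other controls. The log2 fold change was -1.32 ± 0.47, the lowest of all members, and its adjusted p of 0.0715 in limma's fit did not pass. Without control replicate 2 it was -1.87 ± 0.08 (limma adjusted p = 9.4e-09). Ube2t, the E2 enzyme that hands ubiquitin to the ligase, was the most abundant of these genes, at 53.0, 64.5 and 54.8 FPKM in controls and 42.0, 48.4 and 49.8 FPKM in IGF1 libraries. Its groups did not overlap, control replicate 2 was the highest library, and the log2 fold change was -0.29 ± 0.12 (limma adjusted p = 0.105), or 0.37 with the length and GC trends removed. Slx4, the scaffold of structure-specific nucleases, overlapped between the groups, at 0.05.

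The BRCA proteins and their partners diverged. Bard1, the obligate partner of BRCA1 in its ubiquitin ligase, was the member with the highest fold change, while Brca1 and Palb2 were lower in every IGF1 library. Bard1 lies at chr1:71027498-71103146 on the minus strand (11 exonic blocks). It stood at 1.02, 1.89 and 0.936 FPKM in controls and at 2.63, 2.55 and 2.28 FPKM in IGF1 libraries. These were 92, 123 and 85 recovered reads against 184, 163 and 166, so that the IGF1 libraries held more reads on Bard1 although 2 of the 3 controls were deeper than any IGF1 library. The log2 fold change of 0.64 ± 0.18 had an adjusted p of 0.0512 in limma's fit, and the fold change was 0.82 without control replicate 2. On the recovered reads, limma's voom gave 1.06 (adjusted p = 0.0478), and with the length and GC trends removed the value was 0.96.

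Palb2, the bridge between BRCA1 and BRCA2, stood at 5.52, 2.81 and 5.06 FPKM in controls and 2.11, 2.28 and 2.34 FPKM in IGF1 libraries. Its groups did not overlap, and the log2 fold change was -0.71 ± 0.22 (limma adjusted p = 0.0586), or -0.20 with the length and GC trends removed. For Brca1 the controls were 4.06, 2.89 and 4.04 FPKM and the IGF1 libraries 2.45, 2.43 and 2.26 FPKM. Its log2 fold change was -0.45 ± 0.14 (limma adjusted p = 0.0584), or -0.23 with the trends removed. BRCA1 and BARD1 work as a pair, and their transcripts lay on opposite sides of 0 with no overlap between the groups in either. Brip1, the helicase bound to BRCA1, had 6.17, 3.57 and 6.24 FPKM in controls and 3.57, 3.33 and 3.18 FPKM in IGF1 libraries. Control replicate 2 equalled IGF1 replicate 1 to the digits given, and the log2 fold change was -0.51. Brca2, which acts in strand invasion, overlapped at 0.16.

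**Figure D3:**
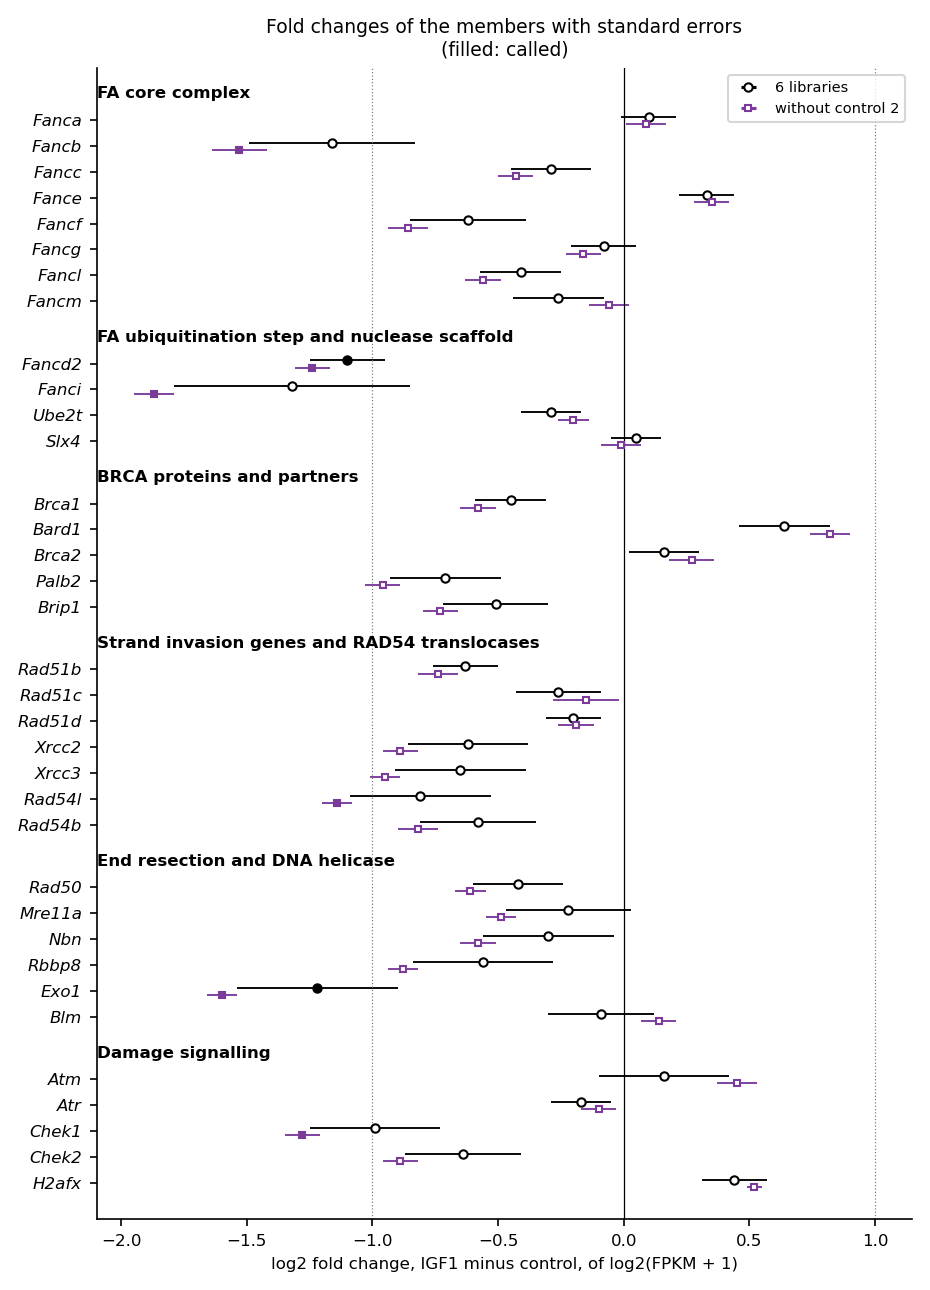
Log2 fold changes of log2(FPKM + 1), IGF1 minus control, with standard errors, for the 35 members by role, from 6 libraries (black circles) and without control replicate 2 (purple squares). Filled symbols are called genes, 2 with all libraries (Fancd2 and Exo1) and 6 without control replicate 2, and dotted lines mark a 2-fold change.

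The genes of strand invasion, which are Rad51b, Rad51c, Rad51d, Xrcc2, Xrcc3 and the RAD54 translocases, were the most uniform set, with all 7 below 0 and a median of -0.62, and with 0 calls. All IGF1 libraries lay below all controls for 6 of the 7, against 37.4% of all genes, Rad51c being the exception. Without control replicate 2 the median was -0.82 and Rad54l was called, and with the length and GC trends removed the median was -0.08 and 4 of 7 were below 0. Rad51b, a subunit of a complex that assists strand invasion, lies at chr12:79297282-79814690 on the plus strand. It stood at 3.09, 2.36 and 3.35 FPKM in controls and 1.51, 1.41 and 1.65 FPKM in IGF1 libraries. Control replicate 2 lay about midway, at position 0.44, and the log2 fold change was -0.63 ± 0.13 (limma adjusted p = 0.0380), short of the 2-fold limit.

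Rad54l, which encodes the translocase RAD54 that drives strand invasion, had 16, 7.5 and 15.2 FPKM in controls and 6.40, 6.57 and 6.64 FPKM in IGF1 libraries, a log2 fold change of -0.81 ± 0.28 (limma adjusted p = 0.0689). Xrcc3, a gene of the same family, had 17.5, 9.18 and 18.0 FPKM against 8.82, 8.27 and 9.11 FPKM. In Xrcc2 the values were 6.63, 3.42 and 6.92 FPKM against 3.31, 3.07 and 3.23 FPKM. Both showed the same picture, with control replicate 2 just above the IGF1 libraries, and their log2 fold changes were -0.65 and -0.62 (limma adjusted p = 0.0888 and 0.0877). Rad54b, a second RAD54 translocase, was at -0.58 (0.05 with the trends removed), with control replicate 2 at 2.34 FPKM and the highest IGF1 library at 2.33 FPKM. For Rad51d the fold change was smaller, -0.20 (0.17 with the trends removed), but control replicate 2 stayed with its group, at 6.27 FPKM beside 5.98 and 6.03 FPKM, and the IGF1 libraries lay between 4.94 and 5.47 FPKM.

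Among the nucleases and helicases of end resection, all 6 were below 0, with a median of -0.36, and Exo1 alone had groups that did not overlap. With the length and GC trends removed, 3 of the 6 were below 0 and their median was 0.04. Exo1 lies at chr1:175880581-175913489 on the plus strand (17 exonic blocks). It stood at 13.5, 5.72 and 13.6 FPKM in the controls, or 1231, 375 and 1248 recovered reads, and at 3.77, 3.89 and 3.82 FPKM in IGF1 libraries, or 265, 250 and 280 reads. Control replicate 2 was well below the other controls and still above all IGF1 libraries. Exo1 fell by 1.22 ± 0.32 on the log2 scale (limma adjusted p = 0.0481), with means of 11.0 ± 4.54 and 3.83 ± 0.0611 FPKM (SD, n = 3), and by 1.60 without control replicate 2.

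The MRN complex senses the break and starts resection, and none of its 3 subunits was called or had groups that stood apart. Nbn, the most abundant gene of the group, had 21.6, 11.9 and 23.2 FPKM in controls and 13.9, 14 and 16.1 FPKM in IGF1 libraries. Control replicate 2 was here the lowest library of all, and the log2 fold change was -0.30, or -0.58 without that library and 0.25 with the trends removed. Rad50 was at -0.42, or -0.02 with the trends removed. Mre11a was at -0.22, or -0.49 without control replicate 2 and 0.10 with the trends removed. Rbbp8, which encodes CtIP, the cofactor of MRN, had a log2 fold change of -0.56, again with control replicate 2 lowest. Without that library it was -0.88, and with the trends removed it was -0.12. Blm, the helicase that unwinds DNA for EXO1 and DNA2, was at -0.09 (0.14 without control replicate 2), with 5.66 FPKM in control replicate 2 and between 3.09 and 3.69 FPKM elsewhere.

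In damage signalling, the effector kinases Chek1 and Chek2 had lower values in every IGF1 library and H2afx higher ones, without a call with all libraries, and the sensor kinase Atm overlapped between the groups. Chek1, the kinase that ATR activates at stalled forks, lies at chr9:36708482-36727065 on the minus strand (14 exonic blocks). It had 14.2, 7.41 and 14.5 FPKM in controls and 5.46, 5.68 and 4.87 FPKM in IGF1 libraries. The groups did not overlap, and the log2 fold change of -0.99 ± 0.26 (limma adjusted p = 0.0483) missed the 2-fold limit narrowly. Without control replicate 2 it was -1.28 ± 0.07 (limma adjusted p = 4.6e-08), and with the length and GC trends removed it was -0.32 (limma adjusted p = 0.0816). Chek2, the target of ATM, had 16.5, 9.81 and 18.0 FPKM against 8.96, 8.05 and 9.52 FPKM. Its log2 fold change was -0.64 ± 0.23 (limma adjusted p = 0.0761), or -0.24 with the trends removed.

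H2afx encodes the histone variant that ATM and ATR phosphorylate around a break, and was the most abundant member. It stood at 239, 284 and 241 FPKM in controls and at 358, 333 and 345 FPKM in IGF1 libraries, which all lay above the controls. The log2 fold change was 0.44 ± 0.13 (limma adjusted p = 0.0547), 0.05 with the libraries rescaled to the same FPKM sum and -0.24 with the length and GC trends removed. H2afx has 1 exonic block, the shortest longest transcript of all members (1384 bases) and the highest GC content (62.3%). For Atm the log2 fold change was 0.16, or 0.45 without control replicate 2 (limma adjusted p = 0.00026), and control replicate 2, at 5.19 FPKM, lay above all other libraries, which ranged from 2.36 to 3.89 FPKM. Atr had groups that did not overlap, from 3.17 to 4.0 FPKM in controls and from 2.79 to 3.10 FPKM in IGF1 libraries, and a log2 fold change of -0.17 (limma adjusted p = 0.251).

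Some members share exonic bases with a neighbour, 10 with a gene on the opposite strand and Rad54b with a gene on the same strand. The libraries were made with a stranded kit, and the strand setting of the counting is not given in the sources used here, so the values of such pairs are uncertain. Rad54l shares 1184 bases with Lrrc41, which had 19.8, 4.68 and 20.5 FPKM in controls and 4.10, 4.26 and 5.43 FPKM in IGF1 libraries. Fanci shares 921 bases with Polg, at 6.16, 2.53 and 6.44 FPKM against 2.52, 3.25 and 2.50 FPKM. Fancl shares 462 bases with Vrk2, at 19.8, 6.36 and 19.3 FPKM against 6.08, 6.83 and 6.90 FPKM. In these 3 pairs, named after their values were seen, both genes were higher in control replicates 1 and 3 than in the other libraries, as the plot of the pairs shows, and among the IGF1 libraries they did not keep the same order. Not all pairs were alike, since the neighbour of Fancc, 2010111I01Rik, stayed between 11.1 and 13.1 FPKM in all libraries. Their part in the values of Rad54l, Fanci and Fancl was not tested. Fancd2 shares 257 bases with Fancd2os, which had 0.0251 FPKM in control replicate 1 and was listed at 0 in the other libraries. Exo1, Chek1, Bard1 and Fancb share no exonic base with another listed gene.

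**Figure D4:**
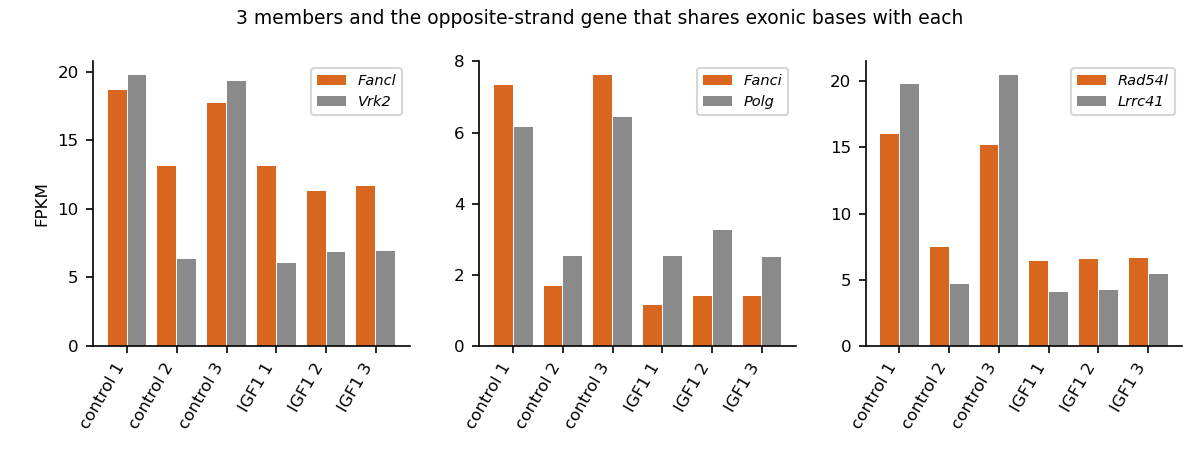
FPKM in each of the 6 libraries for Fancl, Fanci and Rad54l (orange) and the gene on the opposite strand that shares exonic bases with each (grey; Vrk2, Polg and Lrrc41). In all 3 pairs both bars are high in control replicates 1 and 3 and low in control replicate 2 and the IGF1 libraries.

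Of 44 further FA and HR genes, 3 were called lower (4.63% of all genes were) and 0 higher, 30 were below 0 (59.6% of all genes were) and the median was -0.38. Leaving out control replicate 2, 11 were called lower and 2 higher (20.6% and 12.3% of all genes were). Usp1, which removes the ubiquitin from FANCD2, had 69.6, 33.0 and 70.6 FPKM against 24.3, 22.7 and 24.9 FPKM and fell by 1.16 (limma adjusted p = 0.0481). Dna2, the nuclease that resects in parallel to EXO1, fell by 1.02 (limma adjusted p = 0.0399). Usp1 thus fell together with Fancd2, which encodes its substrate. With the length and GC trends removed, Usp1 was at -0.52, Dna2 at -0.65 and Fancd2 at -0.78, all short of a 2-fold change. Under that removal 25 of the 44 genes were below 0 and their median was -0.07.

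Checkpoint adaptors and chromatin mediators had 0 calls in 18 genes with all libraries and 6 lower without control replicate 2 (20.6% of all genes were). Their median was -0.45, or -0.08 with the length and GC trends removed. Non-homologous end joining, the alternative way to rejoin a break, had a median of -0.05 over the 7 of 9 genes that could be tested, with 1 called lower. That gene was Xrcc5, which encodes Ku80 and had 19.7, 6.75 and 21.8 FPKM against 3.92, 2.80 and 3.93 FPKM (log2 fold change -1.77, limma adjusted p = 0.0450). Because many FA and HR genes follow the cell cycle, lists of phase genes were set beside them. Of 20 S phase genes, 18 were below 0, with a median of -0.86, and Cdc6 and Rrm2 were called lower. Pcna, the replication clamp, was at -0.51 (limma adjusted p = 0.0459). Of 18 G2 and M phase genes, 14 were below 0, with a median of -0.70, and Ttk, Aurkb and Ccnb1 were called lower, whereas Mki67, the proliferation antigen, was at 1.10 (limma adjusted p = 0.0690). The medians of both phase lists lay below that of the FA and HR members, and with the length and GC trends removed they were -0.51 and -0.39. Leaving out control replicate 2, 11 S phase genes were called lower (median -1.21), and 9 G2 and M phase genes lower and 1 higher (median -0.95). Of all genes, 20.6% were then called lower and 12.3% higher. The part of the cell cycle in the members' values was not tested. The plot of role groups sets these lists side by side.

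**Figure D5:**
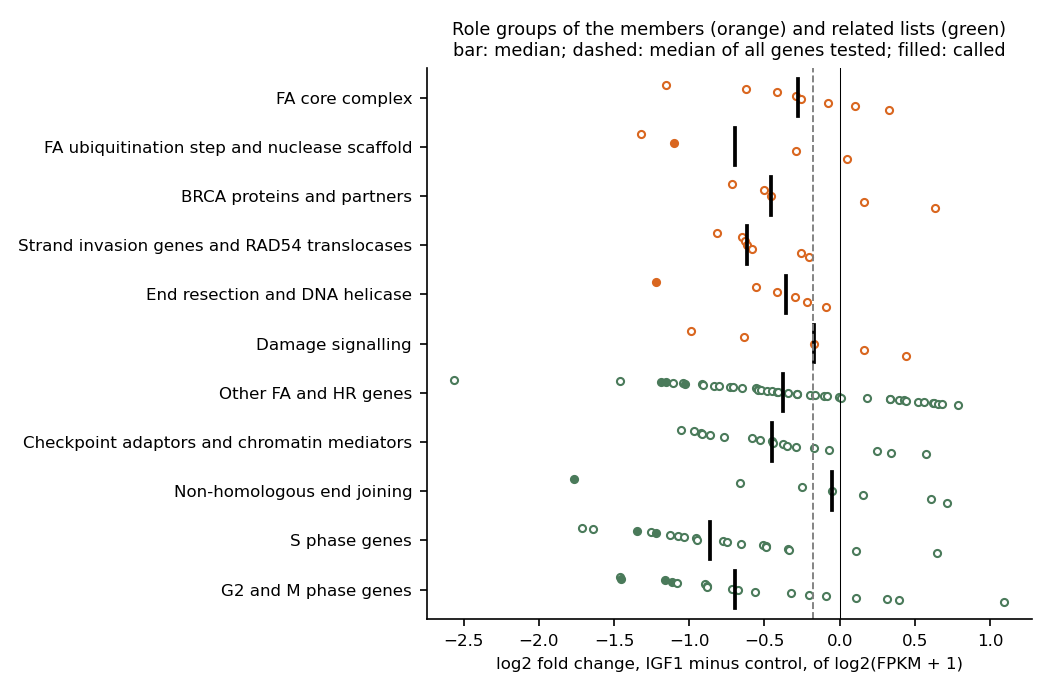
Log2 fold changes (IGF1 minus control) of the members by role (orange) and of related gene lists (green), with 1 point per gene tested. Black bars are medians, filled points are called genes and the dashed line is the median of all genes tested, -0.18; the S phase list has the lowest median, -0.86.

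Markers of the cells that the sort could hold differed between the groups as well. The summed level of 12 HSC markers was 529 to 732 FPKM in the controls, with control replicate 2 highest, and 466 to 484 FPKM in IGF1 libraries, and of these Hoxb5 was under 1 FPKM in all libraries. Transcripts of Cd34 and Flt3, for which the sorted cells should be negative at the surface, were both present. They summed to 438 to 757 FPKM in controls and 413 to 426 FPKM in IGF1 libraries, but went opposite ways. Cd34 had 640, 265 and 634 FPKM in controls and 230 to 238 FPKM in IGF1 libraries, and Flt3 had 117, 172 and 117 FPKM against 183 to 188 FPKM. Of 10 neutrophil and monocyte markers, 8 had at least 1 FPKM in all libraries, and the list summed to 2280 to 2450 FPKM in controls and 2450 to 2460 FPKM in IGF1 libraries, with Ly6g under 1 FPKM throughout. Mpo, at 1610 to 1700 FPKM in all libraries, carried most of that sum. Within the list S100a8, S100a9, Ngp and Camp were called lower, as with S100a8 at 284, 163 and 285 FPKM in controls and 55.0, 72.8 and 60.9 FPKM in IGF1 libraries, while Elane had 92.8, 576 and 92.4 FPKM against 692 to 709 FPKM. The B cell list (8 of 9 found) summed to 100 to 372 FPKM in the controls, with control replicate 2 at 372 FPKM, and to 379 to 398 FPKM in IGF1 libraries, with Ms4a1 and Pax5 under 1 FPKM. For 6 T and NK cell markers the sums were 359 to 778 FPKM and 768 to 789 FPKM, with Cd3e, Cd3d, Cd8a and Ncr1 under 1 FPKM. Nkg7 carried nearly all of that sum, at 366, 776 and 356 FPKM in controls and 767 to 787 FPKM in IGF1 libraries. Cd4 went the other way, at 2.33, 1.71 and 2.14 FPKM against 1.51, 1.08 and 1.90 FPKM. The 8 erythroid markers summed to 29.8 to 89.8 FPKM and 41.7 to 45.7 FPKM, with Alas2 under 1 FPKM, and the 6 megakaryocyte markers to 52.3 to 75.2 FPKM and 93.7 to 104 FPKM, with Vwf under 1 FPKM. None of the listed markers was at 0 in all libraries. Their part in the values of the FA and HR genes was not tested.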

How the data were processed

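RNA-seq of sorted HSCs was used from 3 control and 3 IGF1 libraries, grouped by the treatment label. The dose and day come from the methods and legends of the study. The authors trimmed reads with fastp and, per the methods, quantified genes with RSEM, whereas the submitters' processing notes name HISAT2, StringTie and the builds GRCm38 and mm10. Versions of the tools in these notes and the annotation are not given in the sources used here. In each library the authors deposited values for 21878 symbols, whose unit was taken as FPKM from the values. They sum to 466135 to 680285 per library, and within a gene they are whole multiples of 1 step, which gave whole reads (within 0.02) for 15640 of 15640 genes above 0. Step size gave a length whose Spearman correlation with the longest transcript was 0.81 across 12101 genes; genes are not independent replicates. The scale of the total depth is approximate.

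The filter kept genes reaching 1 FPKM in 3 or more libraries. They were tested on log2(FPKM + 1), all libraries in 1 fit, with limma 3.58.1 in R 4.3.3 (lmFit, eBayes with a variance trend). Fold changes on this scale understate the change of low genes. Calls needed an adjusted p (Benjamini-Hochberg) under 0.05 with a fold over 2, the thresholds of the study. The test was checked on simulated data. Length and GC content, found for 99.1% of the genes tested, came from GENCODE transcripts (GRCm38), and their trends were removed with splines of 4 degrees of freedom. Other tables were made with Python 3.11.15, pandas 2.3.3, numpy 2.4.6 and scipy 1.17.1. Values per library are given for called members, for members whose groups did not overlap with a fold over 1.5, for the highest member of each role and for a few others (such as Brca1, Rad51d and Blm) chosen after their values were seen; of the other lists, called genes, Mki67 and Pcna are named, except 1 that is not reported here. The members and lists were chosen with earlier results of these data known. No pairing by replicate number was assumed. The correlations of same-numbered deviations from the group means were -0.06, -0.05 and 0.01. Control replicate 2 dominates the deviations of the controls, so these correlations could miss a pairing. Control replicates 1 and 3 differed by more than sampling noise (chi-squared per gene 1.52, against 1.69 to 1.89 between IGF1 libraries) and were kept as separate samples. Alternatives were pseudocounts of 0.1 and 5, other filters, scalings and thresholds, voom on recovered reads, no variance trend, library weights, a replicate block and leaving out each library.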

Additional observations from a re-analysis of the deposited data

How the results depend on the processing

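The 2 calls among the members depend on the settings. Called lower were 4 members with a pseudocount of 0.1, on the adjusted p alone and at a fold over 1.5, and 6 with library weights. It was 1 without the filter (Fancd2), with a minimum of 5 FPKM (Exo1, 16 members tested), with 75th percentile scaling (Exo1) and with quantile normalization (Fancb). After rescaling to TPM the calls were Fancd2 and Rad51b. With a pseudocount of 5 and with length and GC trends removed, 0 were called. Called higher was 1 member, Bard1, with voom. Leaving out 1 library gave 0 to 6 members called lower. It was 0 without any library other than control replicate 2, where at an unadjusted p under 0.05 and a 2-fold change 450 to 795 genes were lower and 233 to 386 higher, and 6 without control replicate 2. With the replicate block 0 genes were called (at an unadjusted p under 0.05 and a 2-fold change 680 higher and 1100 lower), and Fancd2 and Exo1 had a limma adjusted p of 0.0851. Whether the replicate numbers pair the samples could not be settled.

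Over all genes, 207 were called higher and 484 lower. Called higher were 66 with a pseudocount of 5, 109 without the filter, 80 after rescaling to TPM, 380 with voom, 1276 with library weights, 0 with the replicate block, 654 on the adjusted p alone and 481 at a fold over 1.5, and 0 to 1281 leaving out 1 library. Called lower were 157 with a pseudocount of 5, 265 without the filter, 260 with 75th percentile scaling, 319 with quantile normalization, 158 with the trends removed, 0 with the replicate block, 2159 with library weights, 1476 on the adjusted p alone and 1165 at a fold over 1.5, and 0 to 2157 leaving out 1 library. The share of calls that were higher was 30.0% in the main scaling, 12.8% after TPM rescaling, 53.7% with 75th percentile scaling, 48.8% with quantile normalization and 51.8% with the trends removed.

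The median of the members was -0.27 with a pseudocount of 5, -0.80 after TPM rescaling (all genes -0.55), -0.17 with 75th percentile scaling (all genes 0.04), -0.23 with quantile normalization, -0.02 with the trends removed, -0.57 with library weights and -0.58 to -0.34 leaving out 1 library. Single members turned direction in 31 of 611 alternatives. After TPM rescaling Fanca was at -0.24, Fance -0.04, Slx4 -0.25, Brca2 -0.15 and Atm -0.14. With the trends removed Fancc was at 0.01, Fancg 0.22, Fancl 0.24, Ube2t 0.37, Rad51c 0.33, Rad51d 0.17, Rad54b 0.05, Mre11a 0.10, Nbn 0.25, Blm 0.38, Atr 0.06 and H2afx -0.24. With 75th percentile scaling Fancg was at 0.16, Rad51d 0.01, Mre11a 0.01, Blm 0.10 and Atr 0.02, and with quantile normalization Fancg was at 0.25, Rad51d 0.02, Mre11a 0.06, Nbn 0.03 and Blm 0.02. With library weights Slx4 was at -0.01 and Blm at 0.14, and leaving out 1 library they ranged from -0.01 to 0.09 and from -0.22 to 0.14, with the turn in both without control replicate 2. The cause of these changes was not tested.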
